A study of Drosophila melanogaster with 2 samples.

Results

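CG4854, CG4424, trem and idc are 4 neighbouring zinc finger genes on arm 3R of Drosophila melanogaster, and all carry a ZAD (zinc finger-associated domain) at the N terminus. They were chosen by name and position, 4 of 13945 protein-coding genes on the 6 main chromosome arms, because the protein followed in this experiment is encoded by one of them. Every deposited peak or candidate with its summit in one of these genes, or within 10 kb of one, was taken.

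The data were chromatin immunoprecipitations with sequencing from whole embryos, 0 to 24 hours old and of mixed sex, of a fly line labelled CG4854-GFP. This line stably expresses CG4854 with GFP fused to its C terminus, and per the description an antibody against GFP was used for the precipitation, while the antibody field names CG4854. The 2 samples are biological replicates 2 and 3 of this 1 group, so there was no other genotype or condition to compare with, and no test between groups was possible. The replicates are separate biosamples of the same line, and the same control file was used for both. The labels name an insertion aimed at CG4854. Whether it adds a copy, which promoter drives the fusion and what the control DNA was is not stated in the labels. DNA of a tagged copy and of the native gene cannot be told apart in these lists.

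ZAD proteins form a large family in insects. The domain binds zinc through paired cysteines and lets these proteins pair with each other, and the zinc fingers of the Cys-His type that follow it bind DNA. In D. melanogaster trem is needed in the female germline for the DNA breaks that start meiotic recombination. The question here was whether CG4854-eGFP occupied its own gene and the related genes beside it.

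The 4 genes lay in 2 head-to-head pairs, within 7844 bp (dm6, chr3R:20026487-20034330). CG4424 (FBgn0038765, minus strand) ran from 20026487 to 20028040 and CG4854 (FBgn0038766, plus strand) from 20028058 to 20029561, with 17 bases between them. trem (FBgn0038767, minus strand) ran from 20029560 to 20031309, so that its 3' end overlapped that of CG4854 by 2 bp. idc (FBgn0038768, plus strand) ran from 20031823 to 20034330, and 513 bases separated it from trem. Each gene had 1 annotated transcript start.

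The genes also resembled each other in structure. Exon 3 was 135 bp long in all 4, and exon 4 was 111 bp long in CG4424, trem and idc, while CG4854 ended with an exon 4 of 362 bp. The encoded proteins were 319 residues long for CG4854, 345 for CG4424, 439 for trem and 521 for idc, and each had 5 matches to the zinc finger spacing of cysteines and histidines. Each also held the paired cysteines of a ZAD near its N terminus, 42 residues apart in CG4854, 54 in CG4424, 49 in trem and 46 in idc, a pattern found in proteins of 2.14% of all protein-coding genes. In global alignments CG4854 was 42.6% identical to idc, 39.7% to trem and 34.5% to CG4424. The closest pair was trem and idc, with 47.2% identity overall and 71.7% over the finger part, against 45.7% to 55% for the finger part of CG4854 with the other 3.

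The sequences below are the ones on which the results turn, read from the plus strand of dm6, 5′ to 3′. They are the whole peak between trem and idc, the bases that separate CG4424 from CG4854, and 101 bases centred on the CG4854 candidate summit and on 2 other peak summits of the region. Capitals mark matches, on either strand, to any of 6 sets of letters. The DNA replication-related element (DRE) was searched as TATCGATA, and the core bound by the insulator protein BEAF-32, which lies within it, as CGATA. For the promoter-binding ZAD protein M1BP the letters were GGTCACACT, and for GAGA factor they were GAGAG. An E-box was searched as CAGCTG, and the TATA box of core promoters as TATAAA.
trem and idc peak, chr3R:20031637-20031812: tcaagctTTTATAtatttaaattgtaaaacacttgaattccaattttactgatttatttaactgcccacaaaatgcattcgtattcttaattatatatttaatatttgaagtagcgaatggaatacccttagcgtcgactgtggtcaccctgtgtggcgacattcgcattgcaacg
Between CG4424 and CG4854, chr3R:20028041-20028057: attTATCGaagggccga
CG4854 candidate summit, chr3R:20028181-20028281: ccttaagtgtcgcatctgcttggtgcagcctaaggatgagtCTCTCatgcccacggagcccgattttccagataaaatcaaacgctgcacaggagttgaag
PIG-L and psidin, summit nearer to PIG-L, chr3R:20021373-20021473: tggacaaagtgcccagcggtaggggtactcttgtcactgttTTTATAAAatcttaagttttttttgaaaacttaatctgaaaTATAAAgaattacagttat
Regnase-1 summit, chr3R:20036103-20036203: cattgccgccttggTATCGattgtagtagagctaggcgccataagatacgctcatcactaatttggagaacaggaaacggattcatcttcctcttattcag

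Peaks came in 4 lists. The replicates each had a list of 30000 candidates, the pooled reads gave another list of 30000, and a set of 3106 peaks was kept by the authors for a low irreproducible discovery rate (IDR). This rate is low for peaks that rank consistently high in the replicates. A candidate list reaches down into background, so an entry in it is not yet a peak. Signal is the authors' score for an entry on the peak caller's own scale, and rank 1 is the highest signal in a list. Read depth is unknown, so no counting error could be given, and agreement between the replicates is the one check on the values. The highest pooled signal was 1775.6, and the weakest peak of the IDR set had 95.2. The 3106 peaks of the IDR set were the 3106 strongest entries of the pooled list. Whether an entry is an IDR peak thus follows from its pooled signal and is no separate observation.

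CG4854 itself carried no IDR peak, either between its ends or within 500 bp of its start. The pooled list had 1 candidate in the gene, from 20028029 to 20028432, with a signal of 43.8 and rank 9771. Its summit lay at 20028231, in the first coding exon, 173 bp downstream of the start. That signal was 0.461 of the weakest in the IDR set and 1.33 times the median of the pooled list.

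In replicate 2 the CG4854 candidate had a signal of 26.4 (rank 8787) and its summit 109 bp inside the gene. In replicate 3 it had a signal of 15.8 (rank 21859), with the summit at 20028232, 1 base from the pooled summit. Replicate 3 listed another candidate in the gene, 411 bp from the start, with a signal of 12.4 and rank 29916, near the end of the list. The signal was thus above the median of its list in replicate 2 (1.35 times) and below it in replicate 3 (0.781 times). The deposited q-value of this candidate was 0.0288 in the pooled list, 0.0455 in replicate 2 and 0.249 in replicate 3.

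CG4424 shared that candidate. With its start 18 bp from that of CG4854, the pooled summit lay 191 bp upstream of the CG4424 start, and the values in all 3 candidate lists were the same ones. Inside CG4424 the pooled list, the IDR set and replicate 3 had no summit. Replicate 2 had 1, in its last coding exon, with a signal of 19.7 and rank 14795. No entry in any list had its summit within the 17 bases between the 2 genes.

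trem and idc shared an IDR peak in the 513 bases between them. It ran from 20031637 to 20031812, with its summit at 20031659, 164 bp upstream of idc and 350 bp upstream of trem. Its signal of 195.3 ranked 913 in the pooled list, 5.91 times the list median. Its q-value was 0.000284, the lowest that the pooled list holds and one shared by 5288 of its 30000 entries. It was the one IDR peak within 500 bp of a start of any of the 4 genes.

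The replicates placed it differently. Replicate 3 had a single candidate there with its summit at 20031660, a signal of 57.6 and rank 2566. Replicate 2 had its strongest candidate nearer to trem, with the summit at 20031546, 237 bp from the trem start, a signal of 137.4 and rank 514. It had another at 20031747, 76 bp upstream of idc, with a signal of 53.9 and rank 2772. The summits of replicate 2 lay on either side of the pooled one. The stronger of them, at 20031546, lay outside the IDR peak, which starts at 20031637. Neither the sequence given for that peak nor the 101 bases around the pooled summit include it.

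**Figure D1:**
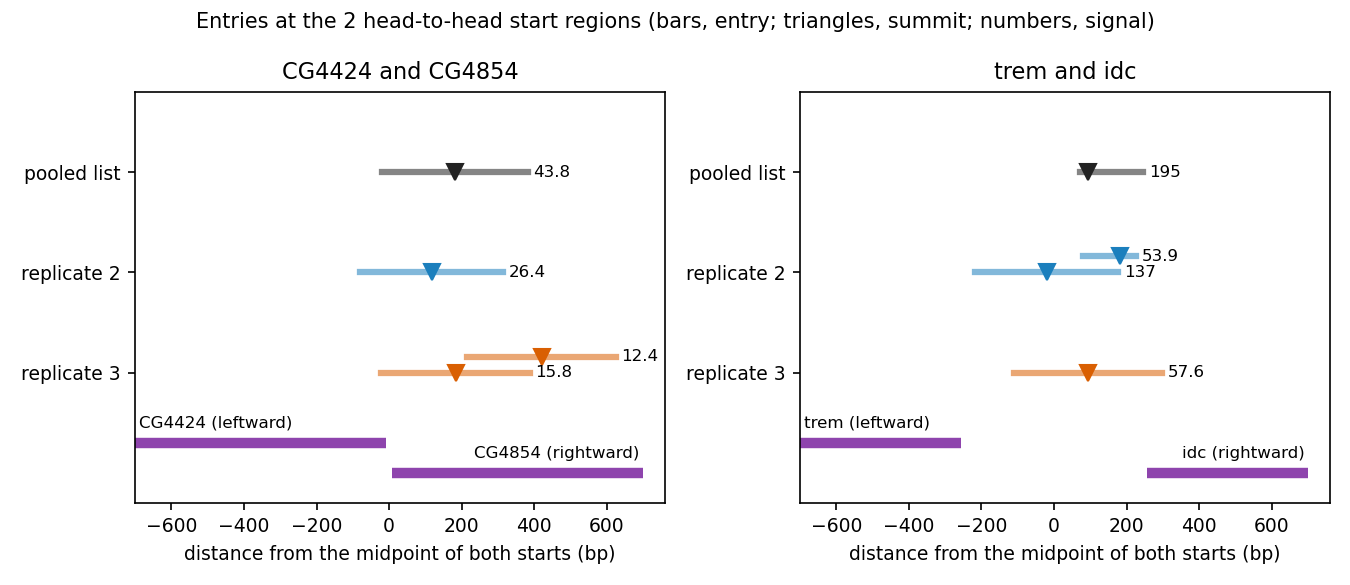
Entries at the start regions of CG4424 with CG4854 (left) and trem with idc (right), by distance in bp from the midpoint of both gene starts. Bars span each entry, triangles mark its summit and numbers give its signal; purple bars are the genes. The strongest candidate at CG4854 has its summit inside the gene in each list, with signals of 43.8, 26.4 and 15.8, and the trem and idc entries have their summits between the genes, with signals up to 195.

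Set side by side, the trem and idc start region stood above the CG4424 and CG4854 start region in every candidate list. The ratio of signals was 4.45 in the pooled list, 5.21 in replicate 2 and 3.65 in replicate 3. These ratios compare the strongest candidate within 500 bp of a start. On that measure both regions were stronger in replicate 2 than in replicate 3, by 1.67 times for CG4854 and 2.39 times for trem and idc. At trem and idc the strongest candidates had different summits, 20031546 in replicate 2 and 20031660 in replicate 3. The entries within 100 bp of the pooled summit there had 53.9 in replicate 2 and 57.6 in replicate 3, so the direction depended on the entry compared. On the log2 scale, replicate 3 over replicate 2, the strongest candidates gave -0.74 for CG4854 and -1.25 for trem and idc. The 5985 genes with a promoter candidate in each replicate had a median of -0.04 on this scale, with quartiles of -0.47 and 0.41. Of these genes, 13.2% had a lower value than CG4854 and 3.09% a lower value than trem and idc. With 2 samples, no test of this difference was made.

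Of the 4 genes, 2 (trem and idc, through 1 shared peak) had an IDR peak at the promoter, with its summit no more than 500 bp from a start, against 15.8% of all protein-coding genes. All 4 had a candidate in that window in each of the 3 candidate lists, against 50.3% of genes in the pooled list, 50.1% in replicate 2 and 52.6% in replicate 3. The 4 genes share 2 start regions, so these counts rest on 2 places. None of the 4 had an IDR summit between its start and end, against 9.0% of all genes.

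The standing of each start region among genes was read from the highest signal within 500 bp of a start. In the pooled list trem and idc stood above 89.3% of the 7014 genes with a candidate, and CG4854 and CG4424 above 31.1%. In replicate 2 the shares were 93.1% and 36.0% of 6980 genes, and in replicate 3 they were 75.2% and 8.47% of 7333 genes. The median gene had 64.4 in the pooled list, which lies between the 2 start regions.

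**Figure D2:**
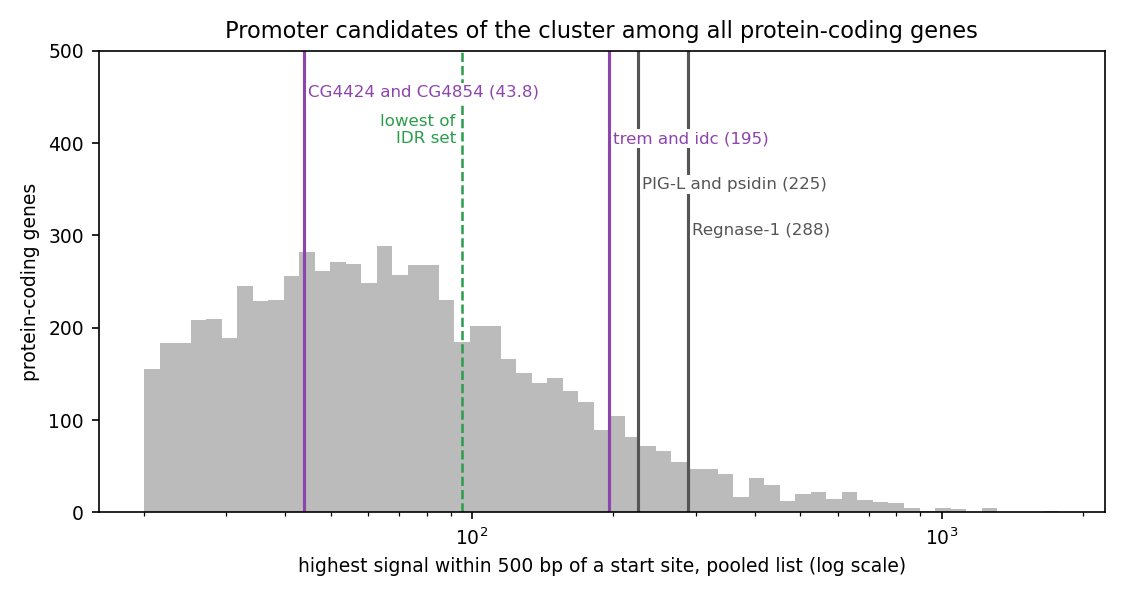
Highest pooled signal within 500 bp of a start (log scale) for the 7014 protein-coding genes with a candidate there, as a histogram. Purple lines mark the start regions of the 4 genes and grey lines those of their neighbours; CG4424 and CG4854 at 43.8 lie left of the dashed line at the weakest IDR peak (95.2), and the other 3 lie right of it.

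The IDR peaks lay beside the 4 genes and not in them, and 9.0% of all protein-coding genes had an IDR summit inside. Within 10 kb of the 4 genes lay 4 IDR peaks, 7 pooled candidates, 10 candidates of replicate 2 and 8 of replicate 3. Of these, 0, 2, 3 and 2 had their summits inside one of the 4 genes. CG4854, CG4424 and trem each had all 4 IDR peaks within 10 kb and idc had 2 of them, while 53.0% of all protein-coding genes had at least 1. The median gene had 1, 26.2% of genes had 2 or more, and 4.55% had 4 or more. The counts for CG4854, CG4424 and trem are of the same 4 peaks, and 2 of these lie 200 bp apart between PIG-L and psidin. For pooled candidates the count around CG4854 was 7, equal to the median over all genes.

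On the left, PIG-L and psidin start 366 bp apart and head to head, and 2 IDR peaks had their summits between them. PIG-L encodes an enzyme of the glycosylphosphatidylinositol anchor pathway, and psidin a subunit of an N-terminal acetyltransferase. One peak (chr3R:20021318-20021515) had its summit 85 bp upstream of PIG-L, with a signal of 225 and rank 692. The other had its summit 81 bp upstream of psidin, with a signal of 161 and rank 1296.

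Replicate 2 also had 2 summits there, with signals of 154 and 104, while replicate 3 had 1, between them, with 67.5 (rank 1881). By the strongest candidate, replicate 2 was thus 2.28 times above replicate 3 at this start region, close to the 2.39 times at trem and idc. The strongest candidates at PIG-L and psidin had different summits, 20021437 in replicate 2 and 20021564 in replicate 3. The entries within 100 bp of the pooled summit nearer to psidin had 104 in replicate 2 and 67.5 in replicate 3.

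On the right, Regnase-1, a relative of mammalian endoribonucleases, carried the strongest peak of the region (chr3R:20036021-20036289). Its summit lay 97 bp upstream of the start, with a signal of 288 and rank 405. The pooled list and both replicates placed this summit at the same base, 20036153. The signals were 136 in replicate 2 (rank 529) and 148 in replicate 3 (rank 368), a ratio of 0.915.

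**Figure D3:**
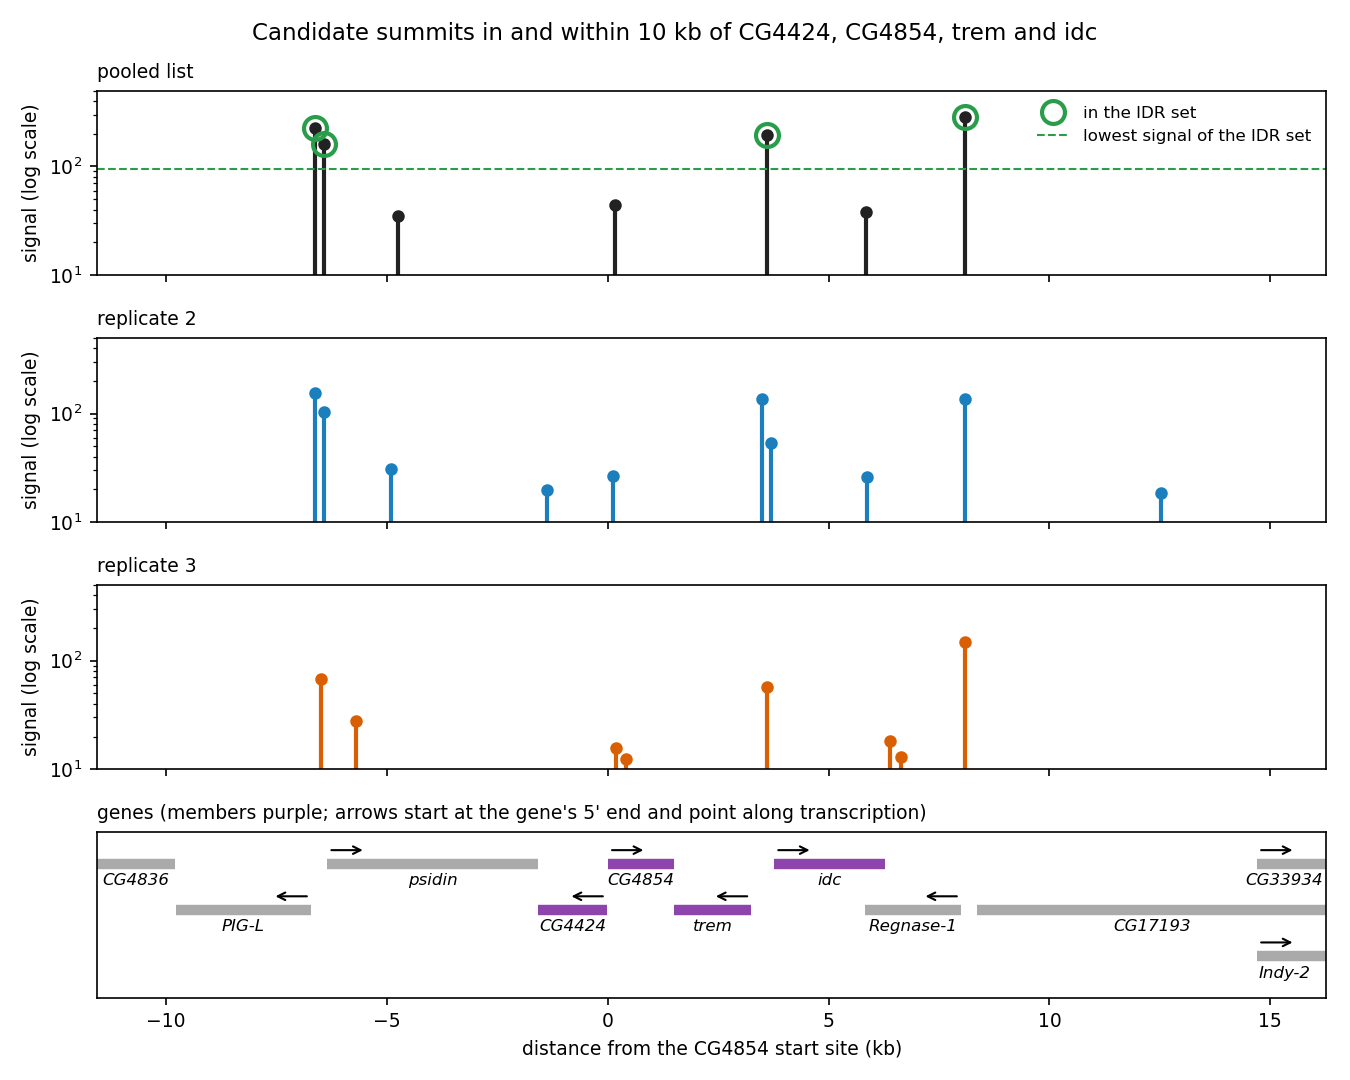
Signal (log scale) of every entry by distance from the CG4854 start in kb, for the pooled list and both replicates, above the genes. Green rings mark the 4 IDR peaks, all upstream of gene starts at psidin with PIG-L, trem with idc, and Regnase-1, while the candidate at 0 kb (43.8) lies under the dashed line at 95.2.

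All 4 IDR peaks of the region had their summits between protein-coding genes and within 500 bp of a start, upstream of every start in that range. The share of all IDR peaks placed in this way is not given here, so this is not read as particular to the region. CG4854 lay in the stretch without one. The nearest IDR summits stood 6435 bp to the left of its start and 3601 bp to the right, 10036 bp apart. Such gaps were common: of 4806 genome segments as long as the whole region (27844 bp), 3089 held no IDR summit. The gap is therefore not read as a depletion at CG4854. The region itself held 4 IDR summits, and 3.25% of the segments held at least as many. Of the 4806 segments, 1509 held no pooled candidate either, while the region held 7. Both shares thus count stretches unlike this region. CG4836, CG17193, CG33934 and Indy-2, the other genes that reach into the region, had no entry within 500 bp of a start in any list.

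Matches between the lists were counted for all entries of the region. Of the 7 pooled candidates, 4 had a summit within 100 bp in both replicates. They were 3 IDR peaks and the CG4854 candidate, and the IDR peak nearer to PIG-L had its match in replicate 2 alone. Over the whole pooled list, 10735 of 30000 (35.8%) were matched in both replicates, and 7799 of these lay outside the IDR set. That list holds 3106 IDR peaks, while the region's 7 candidates include 4. The region's count is therefore not read as high. Of the 3 pooled candidates outside the IDR set, the one at CG4854 was matched in both replicates, against 29.0% of all such candidates. Its summit in replicate 2 lay more than 50 bp from the pooled one, and at a distance of 50 bp the match was lost. One in an intron of idc, where the 3' UTR of Regnase-1 overlaps it, was matched in replicate 2 alone (signal 26.2, against 38.3 pooled). One in an intron of psidin (34.8 pooled) was matched in neither. Replicate 2 had an entry that overlapped this psidin candidate, with a signal of 31.1, but its summit lay more than 100 bp away. Candidates of 1 replicate without a pooled match within 100 bp had signals from 12.4 to 31.1, except the summit of replicate 2 next to trem with 137.4.

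**Figure D4:**
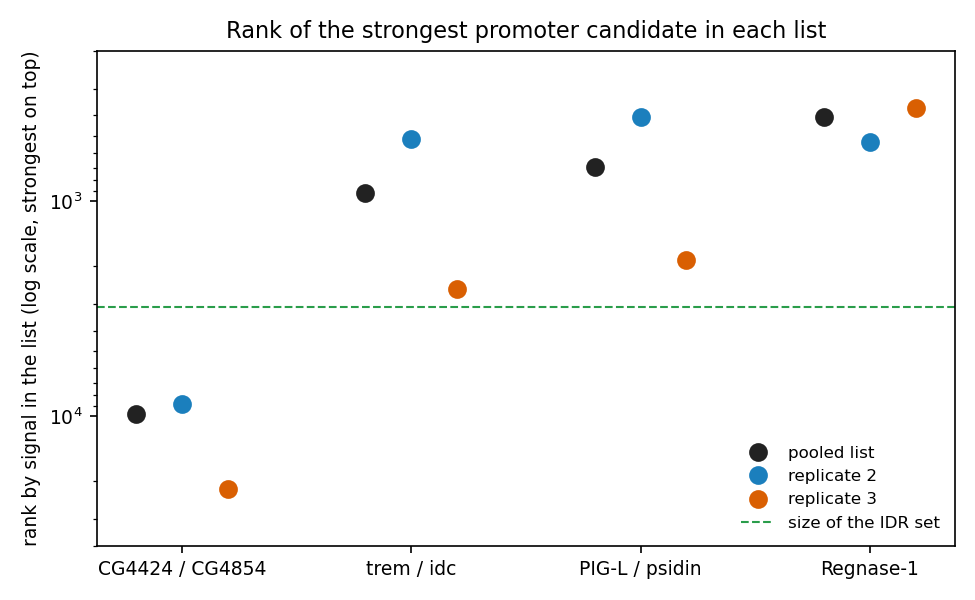
Rank by signal (log scale, strongest on top) of the strongest candidate within 500 bp of the start, in the pooled list and each replicate. CG4424 and CG4854 rank 8787 to 21859, beyond the 3106 of the dashed line, while trem and idc rank 514 to 2566 and Regnase-1 stays within 368 to 529.

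Of the 6 motifs, 3 had a match at 1 or more of the 7 pooled summits. Within 50 bp of the trem and idc summit the TATA box letters occurred once, and they occurred 3 times at the summit nearer to PIG-L; 18.8% of all IDR windows of the same length hold them. The candidate in the psidin intron held them too. CGATA occurred there, at the Regnase-1 summit (18.1% of IDR windows) and also in the 17 bases between CG4424 and CG4854. GAGAG occurred at the CG4854 candidate (10.4% of IDR windows and 11.6% of pooled windows). The DRE (2.64%), M1BP (1.03%) and E-box (4.89%) letters occurred at none of the 7 pooled summits. The window at the trem and idc summit had a GC content of 21.8%, against a mean of 35.9% (SD 9.0) over 3102 IDR windows outside the region. Windows at the other IDR summits of the region had 28.7% to 44.6%. The window in the CG4854 exon had 50.5%, against a mean of 39.3% (SD 9.65) over the other pooled windows outside the region.

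The ZAD family gave context for the cluster. Of 68 other genes listed by name as ZAD genes, 18 (26.5%) had an IDR promoter peak, at 17 distinct places, and 55 (80.9%) had a pooled promoter candidate. Over all protein-coding genes these shares were 15.8% and 50.3%. The strongest were CG1792 (signal 643), CG10147 (448), CG15435 (304) and CG4820 (251). trem and idc were exceeded by 5 of the 55, and CG4854 and CG4424 by 41 of the 55. The paired cysteines were found in proteins of 56 of the 68 genes, and 14 of these 56 (25%) had an IDR promoter peak.

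Elsewhere in the genome, other genes had nearly the same signals in the 3 candidate lists, by Euclidean distance on the log2 scale over 5745 genes. CG4854 was nearest to Mf (43.3 pooled, 26.5 in replicate 2 and 16.3 in replicate 3; distance 0.052), then CG43897 (0.076) and CG13334 (0.084), none with an IDR promoter peak. idc was nearest to CG11723 and Tbcd, which share a peak (187.6 pooled, 134 in replicate 2 and 57.1 in replicate 3; distance 0.070), and to CG17646 (0.090), all with an IDR promoter peak. The presence or absence of an IDR peak in these genes follows from the pooled signals on which they were matched.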

How the data were processed

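Per the labels and the accompanying text, the authors sequenced anti-GFP immunoprecipitates of 2 embryo samples and deposited narrowPeak lists on dm3 and dm6. The replicate lists came from each replicate's alignments and 1 shared control file, the pooled list from the reads of both, so it is no independent measurement, and the IDR set from these 3. The aligner, peak caller, IDR threshold and read depth were not given in the sources used here. Each entry's deposited signal is on the caller's own scale. In the narrowPeak format the authors deposited, q-values stand as −log10; they are constant in the IDR set.

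Only dm6 lists were used, since no dm3 annotation was at hand. Positions count from 1. Genes came from Ensembl release 115 (BDGP6 version 54), and the 4 genes had the same ends in the RefSeq annotation of Release 6, from which sequence was read. A promoter entry had its summit within 500 bp of a protein-coding transcript start. Entries matched when summits lay within 100 bp. Proteins were translated from the annotation and aligned with Biopython 1.88 (BLOSUM62); tables were made with pandas 2.3.3. The promoter assignment was tested on simulated data and recovered 200 of 200 planted entries.

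The genes and lists were chosen with earlier results of these data known. The rule for named genes took the 4 genes, all genes within 10 kb, 3 genes most like each start region, and the 4 strongest ZAD genes. Of 79 ZAD names, 3 had no match and 4 named a gene already listed. All results are descriptions with no test. The sequence at 1 peak of the region is not reported here. Alternatives covered the flank, the promoter window, a stricter peak set, the matching distance, the sequence window and each replicate left out.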

Additional observations from a re-analysis of the deposited data

How the results depend on the processing

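Of 40 alternatives that gave a value, 29 left a signal the same, a count within 1.5 times or a rank within 1 SD of the replicates' ranks, which took in the change from 913 to 514 for trem and idc. Each pooled rank lay between the 2 replicate ranks that set this SD. The nearer replicate's rank therefore could not count as moved. With a flank of 2 kb the region held 2 IDR peaks, 4 pooled candidates and 6 of replicate 2. With a promoter window of 250 bp, 1 of the 4 genes (idc) had an IDR promoter peak, because the summit lies 350 bp from trem, which then had no pooled promoter entry and is not counted among the 40. When either replicate was left out, using the 3106 strongest entries of the other, the region held 3 to 5 peaks (a count added after the data were seen), 2 of the 4 genes had a promoter peak both times, and 18 to 21 of the 72 listed ZAD genes did. Ranks ran from 514 to 2566 for trem and idc and from 8787 to 21859 for CG4854 and CG4424 over the replicates. The weaker ranks, 2566 and 21859, were in replicate 3. With summits matched within 50 bp, 1 of the 7 pooled candidates, at Regnase-1, was seen in both replicates, and the matches at CG4854, at trem and idc and at the psidin start were lost. With summits matched within 200 bp, or by any overlap of the entries, 5 were seen in both. Motif letters were found in 14 pairs of motif and summit with whole entries and in 3 with 25 bp windows, against 6. No paired analysis was possible because the samples form 1 group. Read depth is unknown, so a candidate under the IDR threshold, as at CG4854, does not show that the site is unbound.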

Other observations

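The following descriptions were chosen after the data were seen. Spacing of head-to-head genes was set beside the peaks: of 147 pairs with starts at most 50 bp apart, as CG4424 and CG4854 are, 29 (19.7%, exact Clopper-Pearson 95% interval 13.6 to 27.1) held an IDR summit no farther than 500 bp from one of the starts. Of 418 pairs with starts 401 to 600 bp apart, as trem and idc are, 92 (22.0%, 18.1 to 26.3) had one. Of 845 pairs 201 to 400 bp apart, as PIG-L and psidin are, 317 (37.5%, 34.2 to 40.9) had one. The intervals cover counting error over pairs only.

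The 10 words of 8 letters with the highest ratio of shares between IDR windows and other pooled windows, counted without this region, occurred in 10.5% of 3102 IDR windows and 3.69% of the 26891 others. The words were picked for this contrast in the same windows, so the contrast is no separate result. They were led by CGCGTTGC, CAGCCCTG and CAACACTG. None of the 10 occurred within 50 bp of any of the 7 pooled summits of the region, nor in the 4 whole IDR peaks. Most IDR windows hold none of them, and the share over whole IDR peaks is not given here. Their absence is therefore not read as particular to the region.

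The trem and idc peak held the letters GGTCACCCT, at chr3R:20031779-20031787, which differ from the M1BP letters by A7C (position counted from the 5′ end of the motif). They lay 124 bp from the summit. Whole IDR peaks held the M1BP letters with at most 1 difference in 11.3% of 3106 cases, and pooled candidates outside the IDR set in 7.33%. M1BP is itself a ZAD protein.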
